A study of Mus musculus with 4 samples.

Results

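The 9 genes described here carry sodium, chloride and bicarbonate across the colonic epithelium: the exchangers Slc26a3, Slc9a3 and Slc9a2, the sodium channel subunits Scnn1a, Scnn1b and Scnn1g, the chloride channel Cftr, the cotransporter Slc12a2 and the pump Atp12a. They were chosen by gene symbol for their function, and all 9 were found among 23074 gene symbols. RNA came from 2 cm of mouse colon next to the caecum at 6 weeks of age, in 2 control and 2 mutant libraries. Controls were Nkx2.2flox/+ and mutants Nkx2.2flox/flox; Villin-Cre/+, both of mixed strain. The Villin promoter drives Cre in the intestinal epithelium, where Nkx2-2 is a transcription factor of hormone-producing enteroendocrine cells. The labels list no Cre in controls, so loss of Nkx2-2 and presence of Cre cannot be told apart. Whether each library is a different animal is not stated, and p-values here measure only how far these 4 libraries scatter, which may be technical.

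The colon takes up salt and water from its contents. In the apical membrane of surface cells Slc9a3 and Slc9a2 exchange sodium for protons while Slc26a3 exchanges chloride for bicarbonate, and together they move sodium chloride without net charge. The epithelial sodium channel (ENaC) takes up sodium along its electrical gradient, is built from alpha, beta and gamma subunits and answers to aldosterone. Secretion runs the other way: Slc12a2 loads chloride from the blood side and Cftr releases it, with bicarbonate, into the lumen.

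Levels are FPKM, fragments scaled to transcript length and to the library's mapped fragments, as deposited. Each gene had 1 gene row and 1 RefSeq transcript, so no value was split between isoforms. Depth relative to control 1, read from coverage over FPKM, came to 1.13 for control 2, 0.464 for mutant 1 and 1.03 for mutant 2. The targeted gene Nkx2-2 measured 0.724 FPKM in control 1 and 0.609 in control 2, with mutant 1 at 0.125 and mutant 2 at 0.351. In this order the values rest on about 16, 15, 1 and 5 fragments, as implied by the width of the deposited intervals. The mean was below the 0.5 FPKM required for testing. The mutant values lay below the control values, but the deposited intervals of every mutant and control pair overlapped. All 12 epithelial markers were detected, led by Lgals4 at 2432 to 2865 FPKM. Of the distal gut genes, Hoxa13 reached at most 0.781 FPKM. B cell markers set control 1 apart: all 7 were more than 2-fold above the other 3 libraries there, and their summed level was 131.5 FPKM in control 1, 9.10 in control 2, 13.8 in mutant 1 and 11.2 in mutant 2.

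No transport gene passed the test between mutant and control colon. Of the 9 genes, 7 had a mean of at least 0.5 FPKM and were tested, and 0 of 7 passed in limma at an adjusted p of 0.05, where 0.0643% of 13997 tested genes did. At an unadjusted p under 0.05 the count was also 0 of 7, against 4.82% of all tested genes. By the authors' deposited table none of the 9 genes passed (0.0384% of 20834 genes did), and 0 had an unadjusted p under 0.05.

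**Figure D1:**
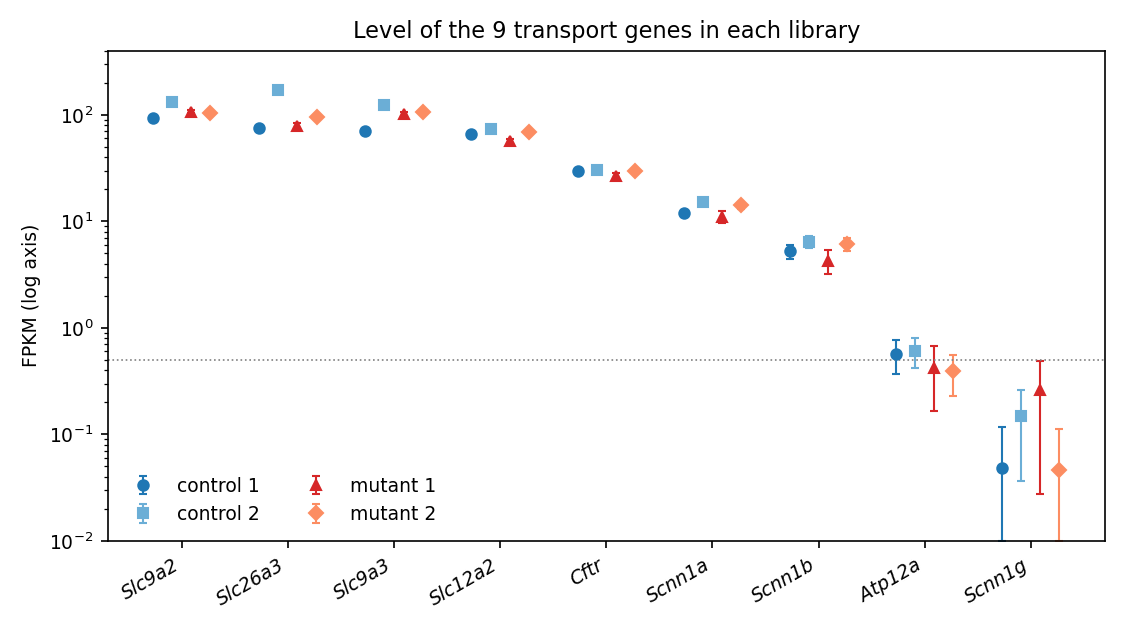
FPKM of the 9 genes (log axis) in each library, with the deposited 95% interval as bars; intervals that reach 0 run off the axis, and the dotted line marks the 0.5 FPKM minimum. Slc9a2, Slc26a3, Slc9a3 and Slc12a2 lie between 57.2 and 170.3 FPKM in every library, Atp12a and Scnn1g below 0.613.

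Levels fell into a wide range from the apical exchangers down to Scnn1g. Mean FPKM over the 4 libraries was 109.6 for Slc9a2, 104.9 for Slc26a3, 100.5 for Slc9a3, 66.4 for Slc12a2, 29.0 for Cftr, 13.1 for Scnn1a, 5.52 for Scnn1b, 0.499 for Atp12a and 0.126 for Scnn1g. The 3 apical exchangers could not be ranked: Slc9a2 exceeded Slc26a3 in 3 of 4 libraries and Slc26a3 exceeded Slc9a3 in 2 of 4. Slc9a3 exceeded Slc12a2 in 4 of 4 libraries, by 1.07 to 1.76 times, although their ranges over libraries overlapped. From Slc12a2 downward the ranges of neighbours in this order did not overlap.

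Slc26a3, the chloride-bicarbonate exchanger whose loss causes congenital chloride diarrhoea, varied most between the controls among the 7 tested genes. It stood at 75.3 FPKM in control 1, 170.3 in control 2, 78.8 in mutant 1 and 95.02 in mutant 2. Control 2 alone was high, and both mutants lay between the controls. The control mean was 122.8 ± 67.2 FPKM, and the mutant mean 86.9 ± 11.4 FPKM (SD, n = 2 each). The log2 change of −0.39 (SE 0.34, 95% interval −1.16 to 0.39, limma adjusted p = 0.825) was smaller than the gap between the controls. It was −0.97 without control 1 (limma adjusted p = 0.273, unadjusted 0.00360) and 0.20 without control 2 (adjusted p = 0.991), so its direction turned with the control left out. The values rest on 1334 to 7003 fragments, as implied by the width of the deposited intervals, and the 2.26-fold gap between controls lies outside those intervals, which cover counting error only.

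Slc9a3, the sodium-proton exchanger NHE3 of the brush border, stood at 70.5 FPKM in control 1, 124.0 in control 2, 100.9 in mutant 1 and 106.8 in mutant 2. Both mutants again lay between the controls. It was the only tested gene of the set with a change above 0, 0.15 on the log2 scale (SE 0.26, 95% interval −0.44 to 0.74, limma adjusted p = 0.861). Without control 1 the change was −0.26, so this direction also rested on 1 library. Slc9a2, the related exchanger NHE2, stood at 92.7 and 133.3 FPKM in the controls and 107.5 and 104.8 FPKM in the mutants. Its change was −0.07 (SE 0.21, 95% interval −0.54 to 0.41, limma adjusted p = 0.923), and it turned to 0.12 after the libraries were rescaled by median ratios. The sum of both sodium-proton exchangers came to 210.2 ± 66.5 FPKM for the controls, against 209.99 ± 2.30 FPKM for the mutants (SD, n = 2 each).

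The stretches upstream of Slc26a3 and Slc9a3, which work as a pair and were both lowest in control 1, are shown because they differ in composition. They are the 250 bases before the RefSeq start (sequence from the RefSeq table of build GRCm38.p6, placed on mm9 by exact match), plus strand, 5′ to 3′. That start lay at −82 bases (Slc26a3) and −102 bases (Slc9a3) from the gene start of the deposited values. Capitals mark matches, on either strand, to any of 3 short motifs. The box bound by the TATA-binding protein was searched as TATAAA. The box bound by Sp1-like factors was searched as GGGCGG and is called the GC box. The third, which intestinal Cdx factors bind, was searched as TTTATG and is called CDX-type.
Slc26a3, chr12:32122834-32123083: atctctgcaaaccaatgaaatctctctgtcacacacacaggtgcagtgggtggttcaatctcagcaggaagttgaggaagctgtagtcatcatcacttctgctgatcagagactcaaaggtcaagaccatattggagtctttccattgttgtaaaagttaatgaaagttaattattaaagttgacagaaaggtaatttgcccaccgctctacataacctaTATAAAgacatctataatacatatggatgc
Slc9a3, chr13:74258611-74258860: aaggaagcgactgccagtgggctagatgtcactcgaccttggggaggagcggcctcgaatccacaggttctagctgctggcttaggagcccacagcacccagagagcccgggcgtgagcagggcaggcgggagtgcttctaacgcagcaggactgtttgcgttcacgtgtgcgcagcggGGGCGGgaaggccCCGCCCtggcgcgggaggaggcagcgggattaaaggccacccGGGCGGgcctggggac
The Slc26a3 stretch was 38.8% G or C, with 1 TATA box match and 0 GC box matches. The Slc9a3 stretch was 67.6% G or C, with 3 GC box matches and 0 TATA box matches. Of all 32851 RefSeq promoters of this length, 12.4% hold the TATA box letters, 32.7% the GC box and 10.8% the CDX-type letters. Neither stretch held the NK-2-type letters TNAAGTGG, found in 2.74% of promoters, nor the HNF4-type letters CAAAGTCCA, found in 0.384%. The motifs do not overlap each other here, and a match is only a match of letters.

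Ratios within a library remove any scaling between libraries. Slc26a3 over Slc9a3 was 1.07 and 1.37 in the controls and 0.781 and 0.890 in the mutants, so both mutants lay below both controls. Slc9a2 over Slc9a3 was 1.32 and 1.07 in the controls and 1.06 and 0.982 in the mutants. These were also apart, but only just, with 1.075 in control 2 and 1.065 in mutant 1. Of 6 ratios computed within libraries, these 2, both over Slc9a3, had ranges that did not overlap. As a background, 15% of the other tested genes had a ratio to Slc9a3 that was lower in both mutants than in both controls. Permuting 2 libraries against 2 exactly cannot give a p below 0.3333, and no test of a ratio was made.

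ENaC subunits differed far more from each other than between genotypes. Scnn1a, the alpha subunit, stood at 11.9 and 15.3 FPKM in the controls and 11.1 and 14.2 FPKM in the mutants. Scnn1b, the beta subunit, stood at 5.22 and 6.39 FPKM in the controls and 4.29 and 6.17 FPKM in the mutants. For both genes the library order was control 2, mutant 2, control 1, mutant 1, and the groups overlapped. The log2 change was −0.10 for Scnn1a (95% interval −0.61 to 0.41, limma adjusted p = 0.896) and −0.15 for Scnn1b (95% interval −0.71 to 0.41, limma adjusted p = 0.857). Scnn1a over Scnn1b was 2.33 ± 0.0817 in controls and 2.45 ± 0.195 in mutants (SD, n = 2 each).

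Scnn1g, the gamma subunit needed for full channel activity, was barely detected. Controls 1 and 2 had 0.0482 and 0.149 FPKM, resting on about 2 and 7 fragments, while mutants 1 and 2 had 0.259 and 0.0467, resting on about 5 and 2. The values overlapped and were too low to test. The authors' deposited table lists a mean normalized count of 3.39 for the controls and 9.04 for the mutants (adjusted p = 1). Scnn1g and Scnn1b are neighbours on the plus strand of chromosome 7 of mm9, Scnn1g from 128878021 to 128911991 and Scnn1b from 129008625 to 129062030, with 96633 bases between them. Their upstream stretches, shown in the same way, let the detected neighbour be set beside the nearly silent one.
Scnn1b, chr7:129008302-129008551: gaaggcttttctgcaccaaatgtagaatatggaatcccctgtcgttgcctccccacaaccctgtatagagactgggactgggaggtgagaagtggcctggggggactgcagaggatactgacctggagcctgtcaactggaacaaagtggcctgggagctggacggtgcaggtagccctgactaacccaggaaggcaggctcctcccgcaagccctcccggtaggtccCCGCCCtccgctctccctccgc
Scnn1g, chr7:128877743-128877992: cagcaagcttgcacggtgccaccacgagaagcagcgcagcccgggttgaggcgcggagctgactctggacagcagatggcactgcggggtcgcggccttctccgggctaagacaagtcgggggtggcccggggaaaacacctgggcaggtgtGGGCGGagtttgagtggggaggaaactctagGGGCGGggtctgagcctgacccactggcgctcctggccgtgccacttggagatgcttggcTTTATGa
The Scnn1b stretch was 60.8% G or C with 1 GC box match, and the Scnn1g stretch 65.2% G or C with 2 GC box matches and 1 CDX-type match. Neither held the TATA box, NK-2-type or HNF4-type letters. The RefSeq start lay at −73 bases (Scnn1b) and −28 bases (Scnn1g) from the gene start of the deposited values.

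Of the tested genes, those of chloride secretion had the smallest standard errors. Cftr, the cAMP-gated chloride and bicarbonate channel, stood at 29.5 and 30.3 FPKM in the controls and 26.8 and 29.5 FPKM in the mutants. Mutant 2 lay just under control 1, so both mutants were below both controls, as for 35.1% of all tested genes. The log2 change was −0.09 (SE 0.18, 95% interval −0.50 to 0.32, limma adjusted p = 0.885), and after median ratio rescaling it was 0.10. Slc12a2, the basolateral sodium-potassium-chloride cotransporter NKCC1, which many cell types beside epithelium also express, stood at 66.1 and 73.6 FPKM in the controls and 57.2 and 68.5 FPKM in the mutants. Mutant 1, the shallowest library, was the lowest and the groups overlapped. Its change was −0.15 (SE 0.18, 95% interval −0.57 to 0.26, limma adjusted p = 0.834). Slc12a2 over Cftr was 2.34 ± 0.138 in controls and 2.23 ± 0.135 in mutants (SD, n = 2 each).

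Atp12a, the colonic proton-potassium pump that takes up potassium at the cell surface, was near the limit of detection. Controls 1 and 2 had 0.568 and 0.613 FPKM, resting on about 32 and 39 fragments, while mutants 1 and 2 had 0.420 and 0.395, resting on about 11 and 23. Both mutants lay below both controls, but the deposited intervals of every mutant and control pair overlapped. Its mean of 0.499 FPKM was just under the minimum for testing. With no filter the log2(FPKM + 0.5) change was −0.26 (limma adjusted p = 0.758, unadjusted 0.0225). The authors' deposited table pointed the other way, with a mean normalized count of 27.5 for the controls, 29.1 for the mutants and a log2 fold change of 0.08.

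**Figure D2:**
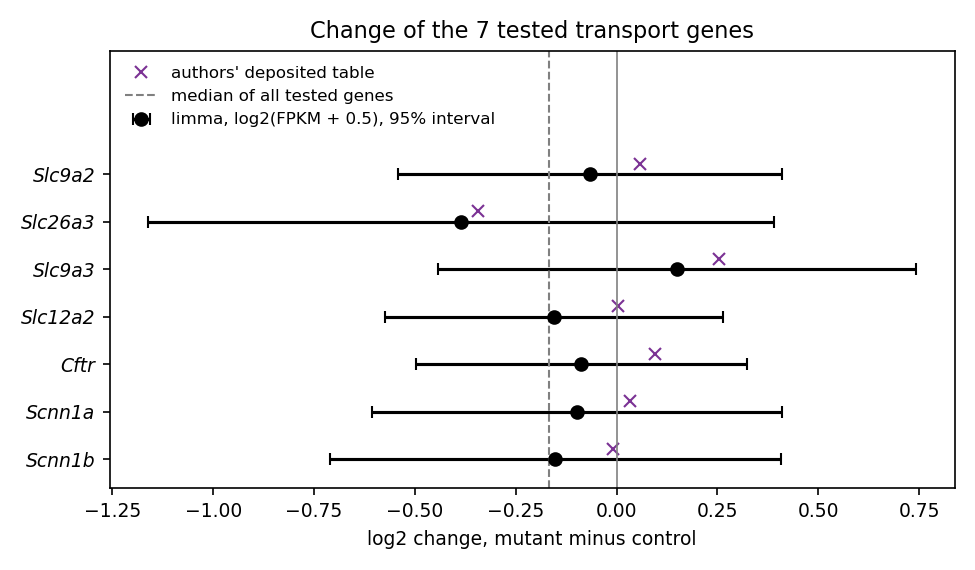
Log2 change, mutant minus control, of the 7 tested genes with the 95% interval from limma; crosses are log2 fold changes of the authors' deposited table and the dashed line is the median of all tested genes. All 7 intervals include 0 and the dashed line at −0.17.

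Across the 7 tested genes 6 had a change below 0, where 82.6% of all tested genes did, and 1 of 7 had ranges that did not overlap, against 38.5% of all tested genes. The median change was −0.10, and that of all tested genes −0.17. After median ratio rescaling 1 of 7 was below 0, against 49.0% of all tested genes. The medians were then 0.08 and 0.01, and 5 genes turned direction (Slc9a2, Scnn1a, Scnn1b, Cftr and Slc12a2). Slc26a3 stayed below 0 at −0.20 and Slc9a3 above 0 at 0.34. The authors' deposited table gave log2 fold changes of −0.34 for Slc26a3, 0.26 for Slc9a3, 0.06 for Slc9a2, 0.03 for Scnn1a, −0.01 for Scnn1b, 0.10 for Cftr and 0.00 for Slc12a2.

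The intervals are per gene, not adjusted for the number of genes tested, with variances that limma draws toward those of other genes. They do not bound the change that the adjusted test could miss. For the related gene Ano10 the interval of 0.381 to 0.720 times left out equal levels, yet the limma adjusted p was 0.459. On the FPKM + 0.5 scale the 95% interval of the mutant level ran from 0.709 to 1.25 times the control level for Cftr, from 0.672 to 1.20 times for Slc12a2 and from 0.687 to 1.33 times for Slc9a2. It ran from 0.656 to 1.33 times for Scnn1a and from 0.611 to 1.33 times for Scnn1b. For the exchangers with the wide gap between controls it ran from 0.447 to 1.31 times (Slc26a3) and from 0.736 to 1.67 times (Slc9a3). These bounds depend on the setting. With no filter on low values the log2 interval widened to −2.15 to 1.37 for Slc26a3 and −1.04 to 1.34 for Slc9a3. It narrowed only for Cftr, to −0.32 to 0.14. Missing the threshold does not show that levels were equal within these bounds.

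**Figure D3:**
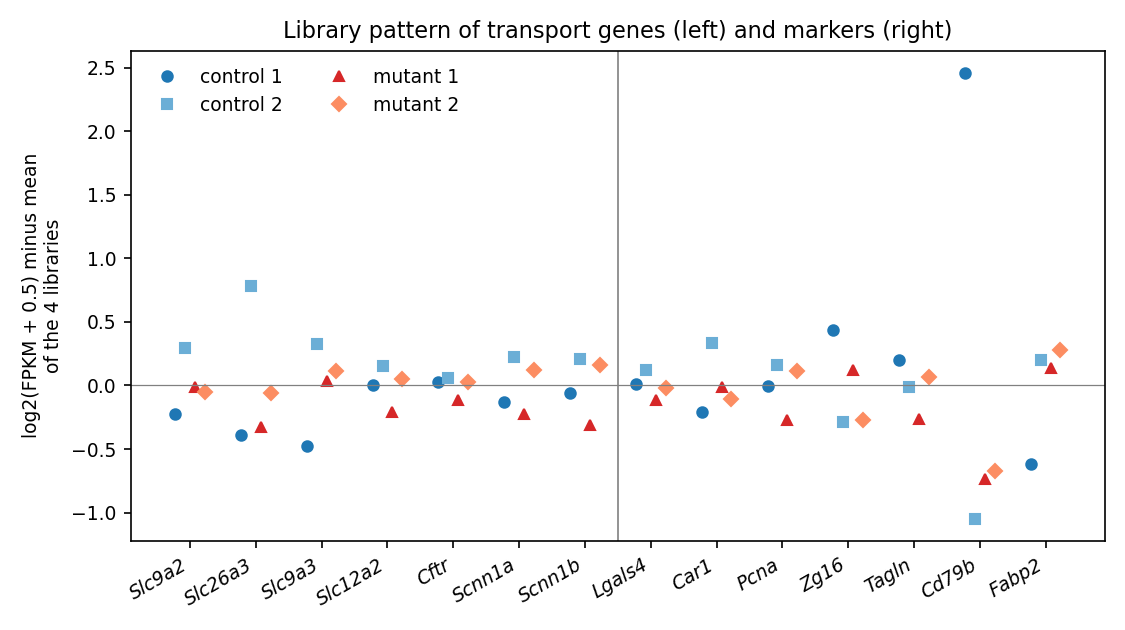
log2(FPKM + 0.5) of each library minus the mean of the 4 libraries, for the 7 tested transport genes (left) and the most abundant marker of 7 lists (right): epithelium (Lgals4), surface colonocytes (Car1), dividing crypt cells (Pcna), goblet cells (Zg16), smooth muscle (Tagln), B cells (Cd79b) and small intestine (Fabp2). Control 1 is the lowest library for Slc9a2, Slc26a3, Slc9a3, Car1 and Fabp2 and the highest for Cd79b, Zg16 and Tagln. A single marker need not follow its list: 3 of 6 goblet and 4 of 7 surface colonocyte markers were lower in control 1 than in control 2.

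Among the 7 tested genes the apical exchangers separated the controls from each other most. The untested Scnn1g had a 3.10-fold gap, from about 2 and 7 fragments. Control 2 over control 1 was 2.26-fold for Slc26a3, 1.76-fold for Slc9a3 and 1.44-fold for Slc9a2, while the median over all tested genes was 0.952. Only 2.29% of tested genes had a larger gap between the controls than Slc26a3, 5.15% a larger one than Slc9a3 and 12.1% a larger one than Slc9a2. For Slc12a2 the share was 55.8% and for Cftr 89.3%. Between the mutants the folds were 1.21, 1.06 and 1.03 for Slc26a3, Slc9a3 and Slc9a2.

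Marker lists differed in whether they moved with this gap. Of all tested genes 39.5% were lower in control 1 than in control 2. Of 12 general epithelial markers 10 were, and their summed FPKM was 9596 and 11490 in the controls and 9568 and 10702 in the mutants. Car1, the carbonic anhydrase of surface colonocytes, stood at 15112 and 22063 FPKM in the controls and 17320 and 16278 FPKM in the mutants. Of the 7 surface colonocyte markers besides Slc26a3, 4 were lower in control 1, and Car1 made up most of their summed FPKM (19538 and 26410 in the controls, 21809 and 20019 in the mutants). Car4, Ceacam20 and Saa1 went the other way between the controls, with Saa1 at 1488 and 744.8 FPKM and Ceacam20 at 56.2 and 24.4 FPKM (3 genes named after their values were seen). Fabp2, a fatty acid carrier of enterocytes, stood at 433.7 and 766.9 FPKM in the controls and 732.6 and 808.3 FPKM in the mutants. It belongs to 7 markers of caecum and small intestine position. Of these 5 were lower in control 1, with a median ratio of control 2 over control 1 of 1.77. Their summed FPKM, mostly from Fabp2, was 481.2 and 839.7 in the controls and 800.4 and 870.7 in the mutants. Fabp2 and Fabp6 were lowest in control 1. Apoa4, Apoa1 and Sis were high in control 2 alone, at 5.33, 8.96 and 2.00 FPKM, against at most 0.137, 1.58 and 0.831 elsewhere. Lct and Hoxd4 were higher in control 1 than in control 2 (genes besides Fabp2 named after their values were seen). Goblet cell markers were split, with 3 of 6 lower in control 1. Their summed FPKM was 8548 and 7586 in the controls and 7165 and 7179 in the mutants. Zg16, a goblet cell lectin in this sum, had 3527 and 2127 FPKM in the controls. Crypt and dividing cell markers were lower in control 1 in 4 of 8, with a median ratio of control 2 over control 1 of 0.927. Smooth muscle markers were lower there in 0 of 7, with a summed FPKM of 1948 and 1746 in the controls and 1431 and 1816 in the mutants. The B cell markers were high in control 1, where the exchangers were lowest. The part of these cell populations in the exchanger values was not tested, and in whole tissue fewer cells of a type and less RNA per cell cannot be told apart.

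Genes whose library pattern was most like that of 2 of the transport genes were found by distance between centred log2(FPKM + 0.5) values, over 4 libraries and 9313 genes of at least 5 FPKM. Nearest to Slc9a2, the most abundant member, were Lhfpl2 (distance 0.0289), Hnf4g (0.0465) and Ccng2 (0.0527). Nearest to Slc26a3, which had the largest change, were Scpep1 (0.135), Gal (0.2204) and Sct (0.243). Sct, the secretin gene, had 86.5 FPKM in control 1, 163.5 in control 2, 93.4 in mutant 1 and 110.3 in mutant 2. Slc9a2 and Slc9a3 lay farther from Slc26a3 (0.6003 and 0.609), with 216 and 239 of the 9313 genes nearer to it. These distances describe 4 libraries and carry no test.

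Other genes of the same transport routes were read from 4 lists with 87 genes, of which 77 were tested. In limma 0 of the 77 passed, with adjusted p-values from 0.459 upward. By unadjusted p under 0.05, 4 were lower and 1 higher in mutants, against 4.12% and 0.7% of all tested genes. By the authors' deposited table none of the 87 passed and 2 had an unadjusted p under 0.05. Changes were below 0 in 63 of 77, against 82.6% of all tested genes, and both mutants lay below both controls in 27 and above them in 2, against 35.1% and 3.39%. The median change was −0.14.

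Regulators of sodium absorption held 14 tested genes. Of these, 9 had a change below 0, against 82.6% of all tested genes. In limma 2 had an unadjusted p under 0.05, against 4.82%. Sgk1, a kinase that steroid hormones induce and that keeps ENaC at the cell surface, stood at 121.5 and 154.3 FPKM in the controls and 93.7 and 64.7 FPKM in the mutants. Tsc22d3, another steroid-induced gene that acts on ENaC, stood at 45.3 and 52.8 FPKM in the controls and 36.3 and 28.1 FPKM in the mutants. In both genes the mutants lay below the controls, as for 35.1% of all tested genes. The log2 changes were −0.81 for Sgk1 (SE 0.23, unadjusted p = 0.00666) and −0.61 for Tsc22d3 (SE 0.20, unadjusted p = 0.0158), with a limma adjusted p of 0.825 for each. After median ratio rescaling they were −0.63 (unadjusted p = 0.0685) and −0.42 (unadjusted p = 0.108). Hsd11b2, the enzyme that shields the aldosterone receptor from glucocorticoids, averaged 109.5 ± 18.1 FPKM over controls and 109.5 ± 11.8 over mutants, and the amino acid transporter Slc6a14 361.7 ± 22.2 and 337.5 ± 62.0 FPKM (SD, n = 2 each).

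Relatives of the exchangers and their scaffold proteins held 18 tested genes of 22. A change below 0 was seen in 16, against 82.6% of all tested genes. An unadjusted p under 0.05 in limma was seen in 1, against 4.82%. That gene was Slc26a1, a sulfate exchanger, with 2.75 and 3.06 FPKM in the controls and 1.47 and 1.94 FPKM in the mutants (log2 change −0.63, limma adjusted p = 0.825, unadjusted 0.0321). Slc9a9, an exchanger of endosomes, stood at 2.93 and 2.56 FPKM in the controls and 1.92 and 1.76 FPKM in the mutants. In both genes the mutants lay below the controls, as for 35.1% of all tested genes. The most abundant were the scaffold gene Slc9a3r1 (NHERF1), which anchors Slc9a3 and Cftr, at 187.7 ± 23.9 and 183.2 ± 15.5 FPKM, and its partner Ezr at 180.0 ± 32.3 and 186.9 ± 20.1 FPKM (SD, n = 2 each).

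The basolateral pump, potassium and chloride genes held 23 tested genes of 28. Changes below 0 were seen in 21, against 82.6% of all tested genes. In limma 0 had an unadjusted p under 0.05, against 4.82%. Atp1b1, a subunit of the sodium pump that drives uptake and secretion alike, averaged 576.1 ± 89.9 FPKM over controls and 572.2 ± 29.2 FPKM over mutants (SD, n = 2 each). It exceeded each of the 9 transport genes in every library. The pump regulator Fxyd5 stood at 34.6 and 21.9 FPKM in the controls and 12.9 and 23.2 FPKM in the mutants, and Fxyd1 at 30.3 and 33.2 and at 20.7 and 27.0 FPKM. Only in Fxyd1 of these 2 did the mutants lie below both controls, as for 35.1% of all tested genes.

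Secretory channels and their receptors held 22 tested genes of 23. Here 17 had a change below 0, against 82.6% of all tested genes. In limma 2 had an unadjusted p under 0.05, against 4.82%. Ano10, of the anoctamin family, stood at 50.05 and 66.3 FPKM in the controls and 31.2 and 28.7 FPKM in the mutants. Its log2 change was −0.93 (SE 0.20, limma adjusted p = 0.459, unadjusted 0.00148), and −0.75 after median ratio rescaling. In Clca6, of a family that modulates calcium-activated chloride currents, controls had 75.4 and 119.9 FPKM and mutants 169.2 and 126.7 FPKM. Both mutants lay above both controls, as for 3.39% of all tested genes. The log2 change of Clca6 was 0.62 (SE 0.25, limma adjusted p = 0.825, unadjusted 0.0386). Guca2a, the gene of guanylin, a peptide that opens Cftr through cyclic GMP, had 2216 ± 559.7 and 1965 ± 278.8 FPKM, and Gnas, the stimulatory G protein subunit, 548.9 ± 15.2 and 448.7 ± 62.3 FPKM in controls and mutants (SD, n = 2 each).

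**Figure D4:**
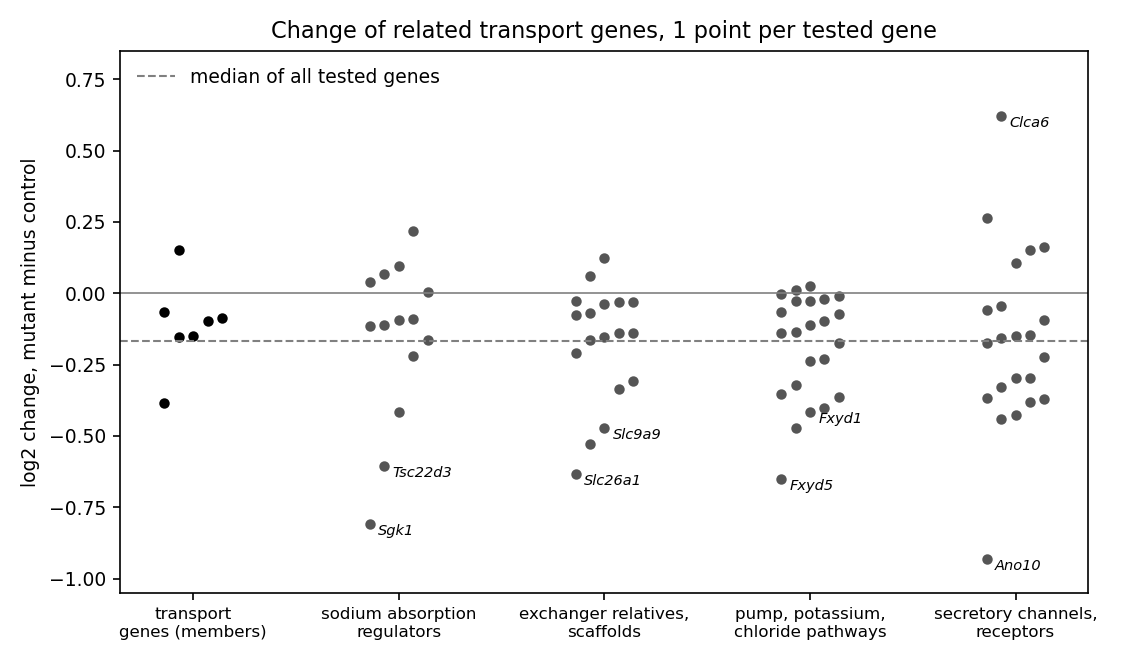
Log2 change, mutant minus control, of each tested gene, 1 point per gene, for the 7 tested transport genes and the 4 related lists; the dashed line is the median of all tested genes. The lowest points are Ano10 at −0.93 and Sgk1 at −0.81, the highest is Clca6 at 0.62, and none passed the adjusted test.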

How the data were processed

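RNA-seq libraries of colon (2 control, 2 mutant) were prepared from total RNA (TruSeq RNA kit, per the labels' protocols). The authors used DESeq, Cufflinks, TopHat and bcl2fastq 1.8.4 on build mm9, per the submitters' processing notes; other versions are not given in the sources used here. Per the file headers, the authors gave FPKM with 95% bounds per gene and transcript, and the coverage signal per transcript. The authors' deposited table gives mean normalized counts per group (a signal), the fold change as a ratio, its log2 value, p-values and adjusted p-values; the step that made its counts is not stated.

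The files hold 23699 gene rows; 306 whose status was not OK in every library were dropped, and rows sharing a symbol were summed. The 13997 genes averaging 0.5 FPKM or more were fitted by limma 3.58.1 in R 4.3.3, on log2(FPKM + 0.5) values, with a variance trend and Benjamini-Hochberg adjustment over all of them at 0.05. This scale understates changes of low genes. The fit was also run on simulated data with equal scatter for every gene. That run cannot show how the fit performs at the unequal scatter found here.

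The members, lists and alternatives were chosen with earlier results of these data known. Genes are named by rule: all members, Nkx2-2, and of each related list those past the threshold, the 2 with the smallest p and the 2 most abundant; of each marker list the most abundant; and the 3 genes with the pattern nearest to the most abundant and to the most changed member. A gene that this rule names is not reported here. A marker of goblet cells was not analysed here. Positions are on mm9, from 1; strand is from GENCODE vM1. Of the 9 members 5 had a sequence in the RefSeq promoter table. Read depth is not stated in the files; implied fragments are (2 × FPKM / upper half-width of the interval) squared.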

Additional observations from a re-analysis of the deposited data

How the results depend on the processing

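No transport gene passed under any of 14 alternatives, and the smallest adjusted p over the 98 pairs of gene and alternative was 0.273; the direction turned in 20 of these 98. The number of all genes past the threshold was 9, and it was 0 with no filter on low values (limma, 1084 at an unadjusted p under 0.05), 3 after median ratio scaling, 2 after quantile normalization and 195 with the replicate block. With each library left out in turn it ran from 8 to 362. The replicate numbers are not said to pair the libraries: same-numbered libraries did not deviate together (correlation −0.0022 over tested genes). With the replicate block 2 related genes passed, Ano10 (limma adjusted p = 0.0157) and Sgk1 (0.0290), against 0 without it, and 0 transport genes. The number of transport genes with ranges apart was 1, and it was 0 after quantile normalization. It was 2 with no filter, where Atp12a, too low for the main fit, joins the count. With each library left out it ran from 1 to 7. There 1 library is set against 2, so ranges lie apart more readily than in the main setting. The share of 38.5% of all tested genes holds for the main setting only, so these counts do not show a shift of the set.

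The main limma fit used FPKM as deposited. Against its log2 changes, median ratio scaling turned Slc9a2 to 0.12, Scnn1a to 0.0806, Scnn1b to 0.0173, Cftr to 0.0960 and Slc12a2 to 0.0297. Quantile normalization turned them to 0.0761, 0.0872, 0.0593, 0.0795 and 0.00289. The authors' deposited table had Slc9a2 at 0.0589, Scnn1a at 0.0339, Cftr at 0.10 and Slc12a2 at 0.00375. The median of the transport genes turned to 0.0806 and 0.0761 under these scalings. With each library left out, the change ran from −0.97 to 0.20 for Slc26a3, −0.26 to 0.56 for Slc9a3, −0.33 to 0.19 for Slc9a2, −0.27 to 0.0772 for Scnn1a, −0.39 to 0.0878 for Scnn1b, −0.15 to −0.02 for Cftr and −0.28 to −0.03 for Slc12a2, and their median from −0.27 to 0.0772. The positive values of Slc26a3 and Slc9a2 came without control 2, that of Scnn1b without mutant 1, and Scnn1a was positive without control 2 and without mutant 1; the negative value of Slc9a3 came without control 1. The cause was not tested. A lone library in a group is assumed to vary like the others. The lower depth of mutant 1 limits Scnn1g and Atp12a.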
